A study of Homo sapiens with 26 samples.

Results

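The 9 genes described here encode major folding factors of the endoplasmic reticulum (ER) and a transcription factor of the response that raises their transcription: HSPA5, HSP90B1, CALR, CANX, HYOU1, DNAJB11, MANF, SDF2L1 and XBP1. They were found by matching the transcripts of the deposited codon maps to GENCODE v44 gene symbols, and each gene had 1 of the 12325 transcripts, of which 11270 had a GENCODE symbol. The cells were Huh7, an established human liver carcinoma line. In the first study the compound PF-06446846 was given at 1.5 or 0.3 μM, or vehicle alone (0.5% DMSO), for 10 or 60 min, with 3 replicates of each of the 6 groups, and ribosome footprints were sequenced (ribo-seq). In the second study the higher dose and vehicle were compared after 60 min, with 2 replicates of each, and both footprints and fragmented mRNA were sequenced (mRNA-seq). Per the paper, the libraries of the 2 assays were made from the same sample. PF-06446846 is a small molecule that makes the human ribosome stall on the nascent chains of a small number of proteins. Each value rests on cultures of a single line, and in bulk samples fewer cells and less RNA per cell cannot be told apart.

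Secretory and membrane proteins are threaded into the ER as they are made and fold there with the help of chaperones. When unfolded proteins accumulate, sensors in the ER membrane start the unfolded protein response, which raises transcription of these chaperones. One sensor, the nuclease IRE1, removes a short intron from XBP1 mRNA in the cytoplasm, and only the spliced form encodes the active transcription factor. The unspliced form is known for a nascent chain that pauses the ribosome close to the end of its coding sequence (CDS), which holds the mRNA at the ER membrane.

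Total reads over all CDSs ran from 6414227 to 22224137 in the 22 ribo-seq libraries and from 15227654 to 22036358 in the 4 mRNA-seq libraries. Of the 12 hepatocyte markers sought by GENCODE symbol, 11 were found in the codon maps, all but ALB, which encodes albumin. Transcripts without a symbol could not be matched, so a gene not found may still be in the maps. The paper lists serum albumin among the proteins secreted by Huh7 cells, so a gene not found this way is not shown to be unexpressed. Each of the 11 had reads in all 22 ribo-seq libraries, from 77.8 CPM at the lowest for APOH to 14062 CPM at the highest for AFP. CPM is the count of a transcript scaled by the TMM-normalized library size. Of the 7 markers of other cell types, 2 were found by symbol, CD68 with 35.8 to 58.6 CPM and PECAM1 with 11.5 to 28.0 CPM.

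With vehicle, the 9 genes were among the more heavily translated of the cell. Levels are given as reads scaled to the length of the CDS and to the CDS reads of the library (RPKM) in the 2 vehicle ribo-seq libraries of the second study. CALR, a lectin chaperone of the ER lumen, had 1430.1 and 1502 RPKM, above 98.3% of 9267 transcripts with at least 50 reads in each vehicle library. HSPA5, the ER member of the HSP70 family, had 851 and 853 RPKM. HSP90B1, the ER member of the HSP90 family, had 736 and 757 RPKM. CALR therefore stood apart from both, and no neighbours in the order of the 9 genes overlapped in these libraries.

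CANX, the membrane-bound lectin chaperone, came next with 439.5 and 452 RPKM. XBP1 had 301 and 294 RPKM, MANF, a secreted ER stress-induced protein, had 233 and 269, and DNAJB11, an HSP40 co-chaperone of HSPA5, had 184 in each library. HYOU1, a large HSP70-like nucleotide exchange factor, had 121 and 124 RPKM, and SDF2L1, an ER-luminal partner of DNAJB11, was lowest at 65.1 and 79.3. In the vehicle libraries of the first study after 10 min the same order did not separate every pair. HSPA5 (696 to 896 RPKM) overlapped HSP90B1 (596 to 950.3), XBP1 (332 to 407) overlapped both CANX (381 to 526) and MANF (329 to 404), and HYOU1 (105 to 129.9) overlapped SDF2L1 (80.2 to 109.7).

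The mRNA gave another order. CALR again led, with 1179 and 1076 RPKM in the 2 vehicle mRNA-seq libraries, but XBP1 followed with 418 and 477 RPKM, ahead of HSPA5 with 284 and 326. The translational efficiency (TE), footprint RPKM divided by mRNA RPKM in the same replicate, ran from a geometric mean over the 2 replicates of 0.435 for SDF2L1 to 4.56 for HSP90B1. HSP90B1 had a TE of 3.92 in replicate 4 and 5.31 in replicate 5, and its geometric mean of 4.56 was at or above that of 98.7% of the 9267 transcripts. HSPA5 (3.00 and 2.61) was at or above 93.3% of transcripts and CANX (2.81 and 2.74) at or above 93.1%. DNAJB11 had 1.66 and 1.36, CALR 1.21 and 1.40, HYOU1 1.09 and 1.21, and MANF 0.959 and 1.18. XBP1 had 0.720 and 0.617, and SDF2L1 0.432 and 0.438, the latter at or above only 14.6% of transcripts. The median of the 9 genes was 1.30, beside 0.987 over all 9267 transcripts.

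Footprints on XBP1 piled up at the end of the CDS. The codon maps hold the unspliced form, ENST00000216037, with 262 codons including the stop codon. The end of this CDS is shown because 3 of its codons, in capitals and counted from the start codon as 249, 260 and 261, carried the highest mean density of the whole CDS in the first study (GRCh38, chr22:28795546-28795605, minus strand, 5′ to 3′, within the last of 5 exons, ending with the stop codon).
XBP1 end of CDS: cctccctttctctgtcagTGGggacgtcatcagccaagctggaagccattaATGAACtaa
Density is the number of reads at a codon, assigned by its P-site, divided by the mean of the CDS. Over an end window of 13 codons (248 to 260), the density of XBP1 was 5.10 at the median of the 18 ribo-seq libraries of the first study, with 4.06 at the lowest and 6.64 at the highest. In the second study it was 4.06 to 4.75 in the 4 ribo-seq libraries and 1.09 to 1.27 in the 4 mRNA-seq libraries. All 22 ribo-seq libraries were therefore above all 4 mRNA-seq libraries.

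The same window, placed on 7951 transcripts with at least 100 codons and 50 reads in every ribo-seq library, had a median density of 0.885 in the first study, and 0.966 was the median of the second. Only 5 of the 7951 transcripts, XBP1 included, reached the mean of XBP1 in the first study (0.0629%), and 10 did in the second (0.126%). Among the other 8 genes the highest means of the first study were 1.69 for DNAJB11 and 1.54 for SDF2L1. A share of 20.2% to 32.9% of all XBP1 footprints of a library of the first study lay in these 13 codons, compared with 5.42% to 6.31% of mRNA reads. The footprints in the window numbered 259 to 1188 in a library of the first study.

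The reads at this end of the CDS fell on a few codons, of which 261 lies just outside the window. Codon 260, which lies 2 codons before the stop codon, had a density of 14.4 at the median of the first study (6.88 to 27.1) and of 31.4 to 41.8 in the second study. Codon 261, the last before the stop codon, had 18.2 at the median of the first study (8.69 to 33.2) and 5.28 to 10.7 in the second. Codon 249, 11 codons or 33 nt upstream of codon 260, had 16.4 at the median of the first study (8.16 to 33.0) and 4.87 to 8.20 in the second. The ranges of the 2 studies did not overlap at codon 260, where the second was higher. Codon 260 had been chosen for its read count in the second study, a choice that favours a higher value there. Codons chosen in the same way in 7951 transcripts had a median density of 9.42 in that study, compared with 4.22 in the other. The 2 studies were also separate sets of libraries. The choice of codon and whatever else differed between the studies cannot be told apart here. In mRNA-seq the 3 codons had 0.42 to 1.31, 0.546 to 0.767 and 1.21 to 2.29. A high density at the codon before the stop was common, with a median of 6.76 over the 7951 transcripts in the first study, and 14.9% reached the level of XBP1 there.

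**Figure D1:**
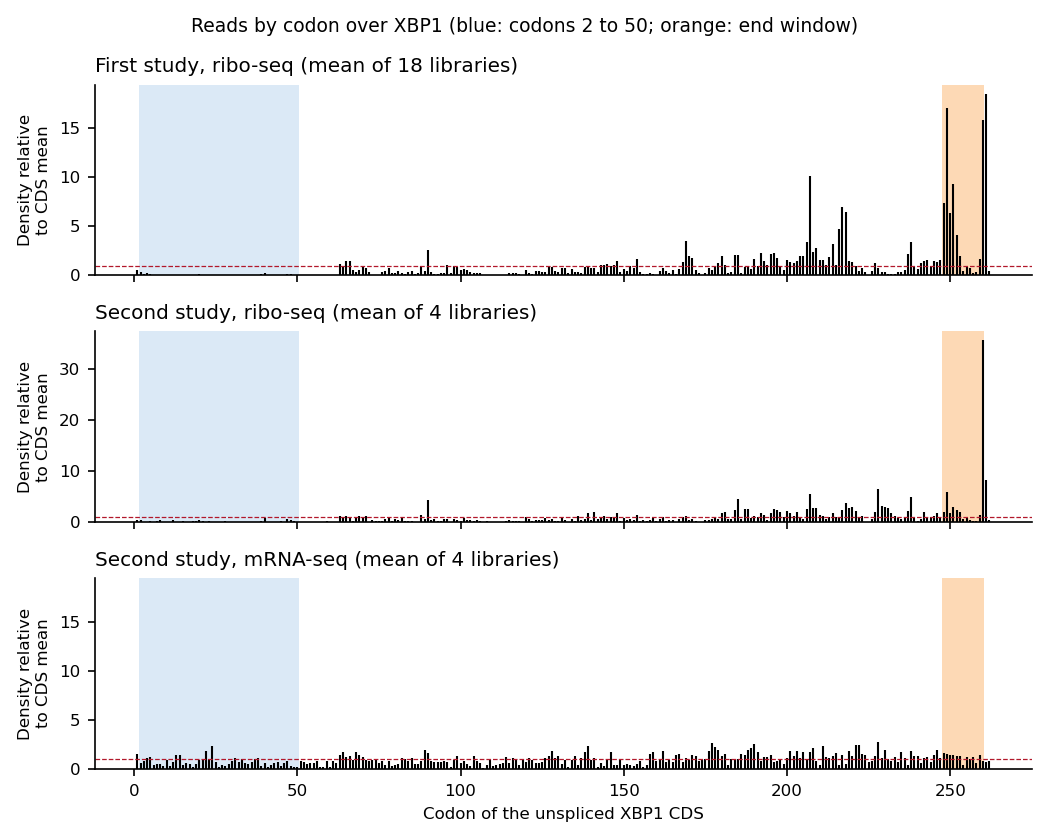
Reads by codon over the 262 codons of the unspliced XBP1 CDS, as density relative to the CDS mean (y axis, linear) against codon number (x axis), averaged over 18 ribo-seq libraries of the first study, 4 of the second and 4 mRNA-seq libraries. The orange band is the end window (codons 248 to 260), the blue band codons 2 to 50 and the dashed line the CDS mean. The mRNA-seq panel has the y range of the first study, and the second-study ribo-seq panel has its own. The peaks at the end of the CDS appear in ribo-seq but not in mRNA-seq.

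The densities at this pause overlapped between compound and vehicle. At codon 260 alone they were 14.5, 11.9 and 9.34 at 1.5 μM and 23.5, 27.1 and 12.9 with vehicle after 10 min, a ratio of 0.565 (exact permutation test, two-sided, p = 0.2), and the ratio was 1.16 after 60 min and 1.07 in the second study. After 10 min the end window had a density of 4.15, 4.40 and 5.11 at 1.5 μM, 4.06, 5.03 and 5.45 at 0.3 μM and 5.25, 4.31 and 5.96 with vehicle. After 60 min it had 5.08, 6.64 and 5.75 at 1.5 μM, 4.63, 4.77 and 6.14 at 0.3 μM and 4.21, 5.36 and 5.30 with vehicle. In each case the groups overlapped, with a difference of 1.5 μM minus vehicle of -0.620 after 10 min and 0.870 after 60 min (exact permutation test, two-sided, p = 0.3 each). The second study gave 4.75 and 4.06 at 1.5 μM and 4.24 and 4.29 with vehicle (exact permutation test, p = 1). With 3 libraries against 3 the smallest two-sided p is 0.1, and with 2 against 2 it is 0.333, so these tests cannot pass 0.05. After 60 min, where same-numbered libraries deviated together over all transcripts, 1.5 μM was higher than vehicle in all 3 same-numbered pairs, as for 9.26% of 8031 transcripts (exact sign-flip test, two-sided, p = 0.25, the smallest that 3 pairs allow). This pairing of densities was added after the values were seen.

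At the other end of XBP1, the beginning of the CDS was nearly free of footprints. Over codons 2 to 50 the density was 0.0464 at the median of the 18 libraries of the first study (0.0243 to 0.116) and 0.116 to 0.170 in the second, at or below which lay 0.882% and 1.26% of 7937 transcripts. The medians over these transcripts were 0.638 and 0.753. The mRNA reads of XBP1 had 0.593 to 0.909 over the same codons, so that the libraries of the 2 assays did not overlap. The GC content of these codons was 76.2% in XBP1, the highest of the 9 genes (42.9% in CANX to 72.8% in SDF2L1), and 58.7% over its whole CDS; whether GC content or alignment to other sites has a part in the low counts was not tested.

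The intron that IRE1 removes lies in the middle of this CDS. It is shown, in capitals, with 12 bases on each side, since reads can align to it only from unspliced mRNA (GRCh38, chr22:28796116-28796165, minus strand; the intron as GENCODE places it is chr22:28796128-28796153 and covers 26 nt over codons 165 to 173).
XBP1 intron: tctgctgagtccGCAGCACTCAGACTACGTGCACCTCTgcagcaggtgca
The spliced transcript, ENST00000344347, has 377 codons in another frame after the intron. Its reads downstream of the intron are counted on the unspliced CDS, and codons past 262 are not in the maps used here. Codons 160 to 178, at which a footprint can touch the intron, were compared with the same number of codons on each side, a comparison chosen after the values were seen. In mRNA-seq the density over the intron was 1.14 and 1.19 times that of the flanks at 1.5 μM and 1.11 and 1.44 times with vehicle. The intron was thus not depleted of mRNA reads in any of the 4 libraries.

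In ribo-seq the same ratio varied more, from 0.348 to 0.464 in the second study and from 0.268 to 1.52 in the first. The codons over the intron held as few as 26 and at most 214 footprints in a library of the first study. The ratio was not computed for other transcripts, so whether the differences given next are unusual was not tested. After 10 min the ratio was 1.36, 1.01 and 0.814 at 1.5 μM and 0.426, 0.322 and 0.603 with vehicle, without overlap (exact permutation test, p = 0.1). At 0.3 μM it was 0.555, 0.451 and 0.840. After 60 min, 1.5 μM (0.375, 1.52 and 1.37) and vehicle (0.268, 1.14 and 1.22) overlapped, although 1.5 μM was higher in all 3 same-numbered pairs, by 0.216 on average (exact sign-flip test, p = 0.25, the smallest that 3 pairs allow).

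A pause codon was taken for each of the 9 genes. For each gene the codon with most reads was taken from the 4 ribo-seq libraries of the second study, without the start codon and the last 2 codons, and then measured in the 18 libraries of the first, which had no part in the choice. By mean density over its 18 libraries, and again without the start codon and the last 2 codons, the first study had its highest codon at another position in 7 of the 9 genes, all but DNAJB11 and MANF. In XBP1 that was codon 249, with a mean of 17.0 compared with 15.8 at codon 260, although codon 260 had the most reads when the libraries were pooled. XBP1 and MANF had the highest pause codons of the 9, with means of 15.8 and 15.5 in the first study and 35.5 and 22.7 in the second. That of MANF was codon 151 of the 186 in the maps, which start 3 codons upstream of the GENCODE start. Its density was 14.9 at the median of the first study, 9.20 at the lowest and 28.2 at the highest, and the mRNA reads had 0.0 to 1.64. Only 8.09% of the 7951 transcripts had a mean at their own pause codon as high as that of MANF, and 7.84% as high as that of XBP1 at codon 260.

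The other 7 genes lay nearer to the median of all transcripts, which was 4.22 in the first study. HYOU1 had a median density of 6.37 at codon 617 (3.69 to 10.8), CANX 6.13 at codon 343 (2.06 to 10.1) and DNAJB11 4.62 at codon 215 (1.65 to 18.1). HSPA5 had 4.00 at codon 72 (1.82 to 6.40), SDF2L1 3.56 at codon 135 (1.53 to 6.33), HSP90B1 3.19 at codon 439 (1.29 to 4.61) and CALR 1.88 at codon 254 (0.444 to 3.99). The mRNA reads at these 7 codons had a density of 0.0 to 3.55. CALR, with a mean of 8.11 in the second study, was below its CDS mean at this codon in 7 of the 18 libraries of the first. At least as high a mean in the first study was found in 49.7% of transcripts for HSPA5, 54.2% for SDF2L1, 64.6% for HSP90B1 and 80.0% for CALR, so these 4 codons did not stand apart there.

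The sequence at these codons is shown because 4 of the 9 pause codons, those of MANF, HYOU1, DNAJB11 and HSPA5, had the same 3 letters, GGG, given in capitals with 10 codons upstream and 4 downstream (GRCh38, coding strand, 5′ to 3′). The windows lie at chr3:51388952-51388996 (MANF, plus strand), chr11:119049147-119049191 (HYOU1, minus strand), chr3:186582008-186582052 (DNAJB11, plus strand) and chr9:125240802-125240846 (HSPA5, minus strand), each within 1 exon.
MANF codon 151: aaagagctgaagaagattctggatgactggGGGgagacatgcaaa
HYOU1 codon 617: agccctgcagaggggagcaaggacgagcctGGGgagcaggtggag
DNAJB11 codon 215: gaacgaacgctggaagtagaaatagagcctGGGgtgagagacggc
HSPA5 codon 72: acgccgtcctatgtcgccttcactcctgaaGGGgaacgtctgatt
This count of GGG rests on the choice made in the second study. In the first study HYOU1 had its highest mean density at codon 549 (16.2, compared with 6.82 at codon 617), and HSPA5 at codon 383 (6.89, compared with 4.25 at codon 72).
GGG made up 3.52% of the pause codons of 7036 transcripts whose CDS length matched GENCODE, and 1.52% of all their codons. Codons that begin with GG, all of which encode glycine, made up 17.8% of pause codons and 6.42% of all codons, and GGA was the most frequent pause codon (7.06%). CALR and CANX paused at GAT (4.05% of pause codons), HSP90B1 at TCA, SDF2L1 at GAA and XBP1 at ATG.

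At 1.5 μM for 10 min the groups did not overlap at 3 of the 9 pause codons, compared with 19.9% of the 7951 transcripts, which were not matched in read depth. A library of the first study held as few as 5 and at most 160 reads at codon 215 of DNAJB11. The reads were 67 to 411 at codon 151 of MANF and 29 to 321 at codon 343 of CANX. At codon 215 of DNAJB11 the densities were 2.75, 3.26 and 3.66 at 1.5 μM and 7.43, 18.1 and 7.54 with vehicle, a ratio of 0.292. At codon 151 of MANF they were 13.4, 15 and 11.3 at 1.5 μM and 24.3, 18.5 and 17.7 with vehicle, a ratio of 0.656. These 2 genes were lower with the compound, whereas codon 343 of CANX was higher, with 8.06, 8.54 and 5.5 at 1.5 μM and 5.05, 2.15 and 4.95 with vehicle, a ratio of 1.82 (exact permutation test, p = 0.1 for each of the 3). At 0.3 μM DNAJB11 had 8.86, 3.21 and 7.24, MANF 19.4, 11.5 and 16.7, and CANX 2.06, 9.89 and 6.50, and all 3 overlapped vehicle. Over the 9 genes the median ratio of 1.5 μM to vehicle was 0.749, beside 0.813 over all transcripts.

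After 60 min no pause codon of the 9 genes separated 1.5 μM from vehicle (smallest exact permutation p = 0.2), compared with 8.24% of all transcripts. DNAJB11 had 6.15, 1.65 and 3.70 at 1.5 μM and 13.7, 3.14 and 5.54 with vehicle. MANF had 16.7, 12.1 and 9.48 at 1.5 μM and 28.2, 14 and 12.1 with vehicle. The groups overlapped in both genes, but within the 3 same-numbered pairs 1.5 μM was lower each time in both, and in HYOU1 as well. That made 3 of the 9 genes lower in all 3 pairs and 0 higher, compared with 15.8% and 7.21% of all transcripts (exact sign-flip test, p = 0.25 for each of the 3). The median ratio over the 9 genes was 0.783, beside 0.841 over all transcripts.

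**Figure D2:**
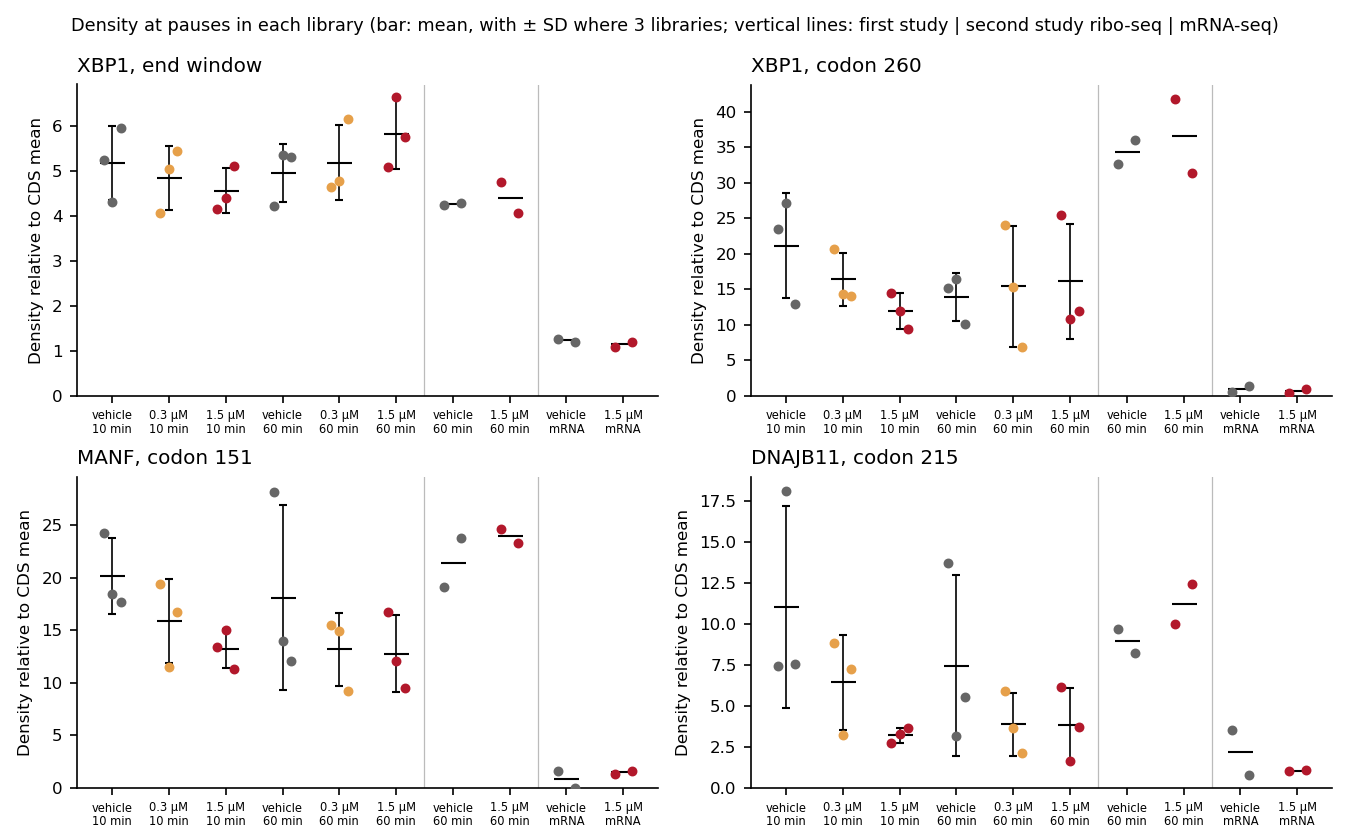
Density relative to the CDS mean (y axis, linear from 0) in each library (points) of each group (x axis) for the XBP1 end window, XBP1 codon 260, MANF codon 151 and DNAJB11 codon 215; horizontal bars are means, with ± SD where a group has 3 libraries. Ribo-seq libraries lie far above mRNA-seq at XBP1, and 1.5 μM lies below vehicle after 10 min without overlap at MANF and DNAJB11.

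HSPA5 and HSP90B1 end in the signal that returns escaped chaperones to the ER. Their last 10 codons, with the 4 codons of this signal in capitals before the stop codon, are shown for comparison with the end of XBP1 (GRCh38, chr9:125236592-125236621, minus strand; chr12:103947633-103947662, plus strand).
HSPA5 end of CDS: gaggatacagcagaaAAAGATGAGTTGtag
HSP90B1 end of CDS: gaatctacagctgaaAAAGATGAATTGtaa
The end window of 13 codons had a density of 1.06 at the median of the first study for HSPA5 (0.772 to 1.83) and 0.355 for HSP90B1 (0.168 to 1.03). None of these libraries reached the lowest value of XBP1.

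Reads over the whole CDS were then compared between compound and vehicle with edgeR's quasi-likelihood test, in which a gene was called at a Benjamini-Hochberg FDR under 0.1 over all transcripts tested. All 9 genes were tested in each of the 11 comparisons. At 1.5 μM for 10 min 1 of the 9 was called, DNAJB11, which was lower, compared with 0.851% of 11045 transcripts (51 higher and 43 lower). DNAJB11 had 151, 158 and 154 CPM at 1.5 μM and 213, 238 and 199 CPM with vehicle. All 3 treated libraries were below all 3 vehicle libraries, and the log2 fold change was -0.49 (SE 0.10; edgeR adjusted p = 0.0651). At 0.3 μM it had 195.7, 196.5 and 171 CPM, again below the vehicle libraries (2.75% of transcripts were lower without overlap at this dose), with a log2 fold change of -0.20 (SE 0.12; edgeR adjusted p = 1). Leaving out a library ended the call for DNAJB11 in 5 of 6 cases, with adjusted p up to 0.383 without 1.5 μM replicate 2, and its log2 fold change stayed between -0.55 and -0.43.

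XBP1 and SDF2L1 came nearest to a call among the other 8 genes. XBP1 had 213, 211 and 226 CPM at 1.5 μM, 305, 220.5 and 284 at 0.3 μM and 246.5, 285 and 308 with vehicle after 10 min. The 1.5 μM and vehicle libraries did not overlap, and the log2 fold change of -0.37 (SE 0.11) had an edgeR adjusted p of 0.138. SDF2L1 had 91.2, 89.3 and 65.5 CPM at 1.5 μM and 54.3, 49.8 and 70.3 with vehicle, where 1 treated library was below 1 vehicle library, with a log2 fold change of 0.50 (SE 0.15; edgeR adjusted p = 0.155). With DESeq2, DNAJB11 (adjusted p = 0.0024), XBP1 (0.0543) and SDF2L1 (0.0630) were all called, and so they were in an edgeR fit blocked on the replicate number (0.00381, 0.0322 and 0.0150). These fits also called more of all transcripts, 4.31% with DESeq2 and 10.8% with the block, compared with 0.851%. Without vehicle replicate 3, HSP90B1 was called too, and 4 of the 9 genes passed, compared with 14.9% of all transcripts.

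HSPA5 had 1296, 1387 and 1229 CPM at 1.5 μM and 1456, 1639.9 and 1316 with vehicle after 10 min, and a log2 fold change of -0.18 (SE 0.11). The groups overlapped in HSPA5. HSP90B1 had -0.29 (SE 0.14), MANF -0.19 (SE 0.11), CANX -0.15 (SE 0.12), CALR -0.04 (SE 0.10) and HYOU1 0.03 (SE 0.11), with adjusted p from 0.289 to 0.888 by edgeR for these 6. Of the 6, only the CPM of MANF did not overlap between the groups, which made 3 of the 9 genes with DNAJB11 and XBP1, all lower, compared with 22.0% of transcripts tested in either direction and 11% lower. The transcripts tested were not matched to the 9 genes in read depth. The median log2 fold change was -0.18 over the 9 genes and 0.01 over all transcripts tested.

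**Figure D3:**
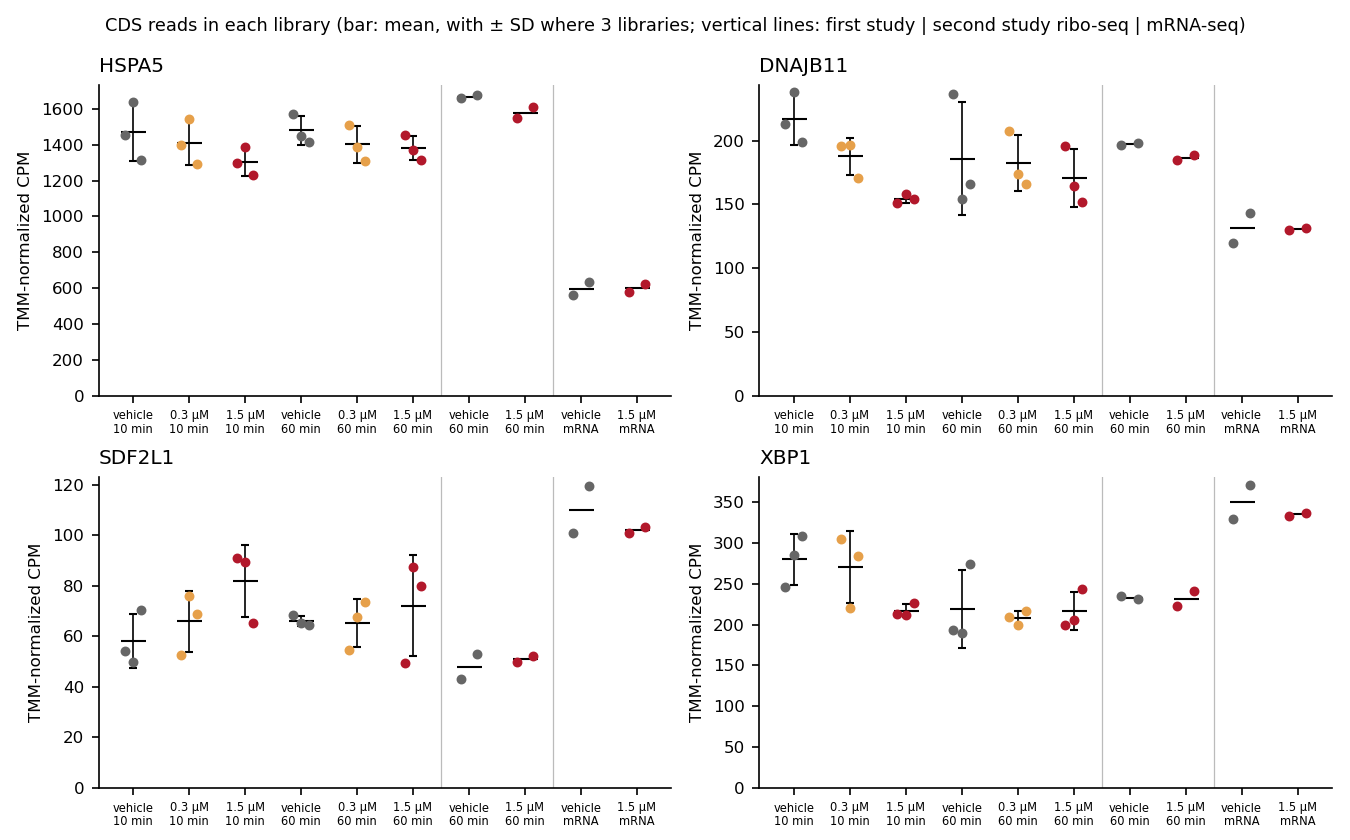
CDS reads of HSPA5, DNAJB11, SDF2L1 and XBP1 as TMM-normalized CPM (y axis, linear from 0) in each library (points) of each group (x axis); horizontal bars are means, with ± SD where a group has 3 libraries. The 3 libraries of 1.5 μM after 10 min lie below the 3 of vehicle for DNAJB11 and XBP1.

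After 60 min at 1.5 μM no member of the set was called, compared with 0.0726% of 11021 transcripts. None had an unadjusted p under 0.05, compared with 2.2% of transcripts. This fit did not use the pairing of same-numbered libraries. With the replicate number as a block, edgeR called none of the 9 genes, compared with 0.463% of transcripts. DNAJB11 had 196, 164.5 and 152 CPM at 1.5 μM and 237, 155 and 166 with vehicle, and XBP1 had 199.7, 206 and 243 at 1.5 μM and 193, 190.1 and 274 with vehicle. Both genes overlapped. The log2 fold changes of the 9 genes ran from -0.19 (HSP90B1) to 0.12 (SDF2L1), with SEs of 0.11 to 0.18. At 0.3 μM the fold changes ran from -0.20 to 0.19 after 10 min and from -0.18 to -0.01 after 60 min, and edgeR called 0.0% of 11131 and 0.0% of 11141 transcripts. At an unadjusted p under 0.05 there were 104 and 97 transcripts and none of the 9 genes, and DESeq2 also called 0.

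The second study gave narrower errors. At 1.5 μM for 60 min the log2 fold changes of footprints ran from -0.10 (HSP90B1, SE 0.06) to 0.10 (SDF2L1, SE 0.11), and none of the 9 was called, compared with 0.115% of 11263 transcripts. HSPA5 had 1549 and 1609 CPM at 1.5 μM and 1658 and 1680.3 with vehicle. The 2 groups did not overlap, as they did not for HSP90B1 and DNAJB11 (3 of 9 genes, all lower, compared with 30.1% of transcripts tested in either direction and 15.2% lower), and its log2 fold change was -0.08 (SE 0.06; edgeR adjusted p = 0.999). In mRNA-seq the fold changes ran from -0.11 (SDF2L1, SE 0.11) to 0.12 (HSP90B1, SE 0.13), with 0.0% of 11812 transcripts called by edgeR (228 at an unadjusted p under 0.05) and 1 by DESeq2. For TE, tested as the interaction of assay and treatment, they ran from -0.21 (HSP90B1, SE 0.16) to 0.20 (SDF2L1, SE 0.16), and none of the 9 was called, compared with 0.0339% of 11799 transcripts. The TE fit treated the libraries of both assays as independent, although they came from the same samples. None of the 9 genes had an unadjusted p under 0.05 in any of these 3 comparisons, and DESeq2 called none of them.

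**Figure D4:**
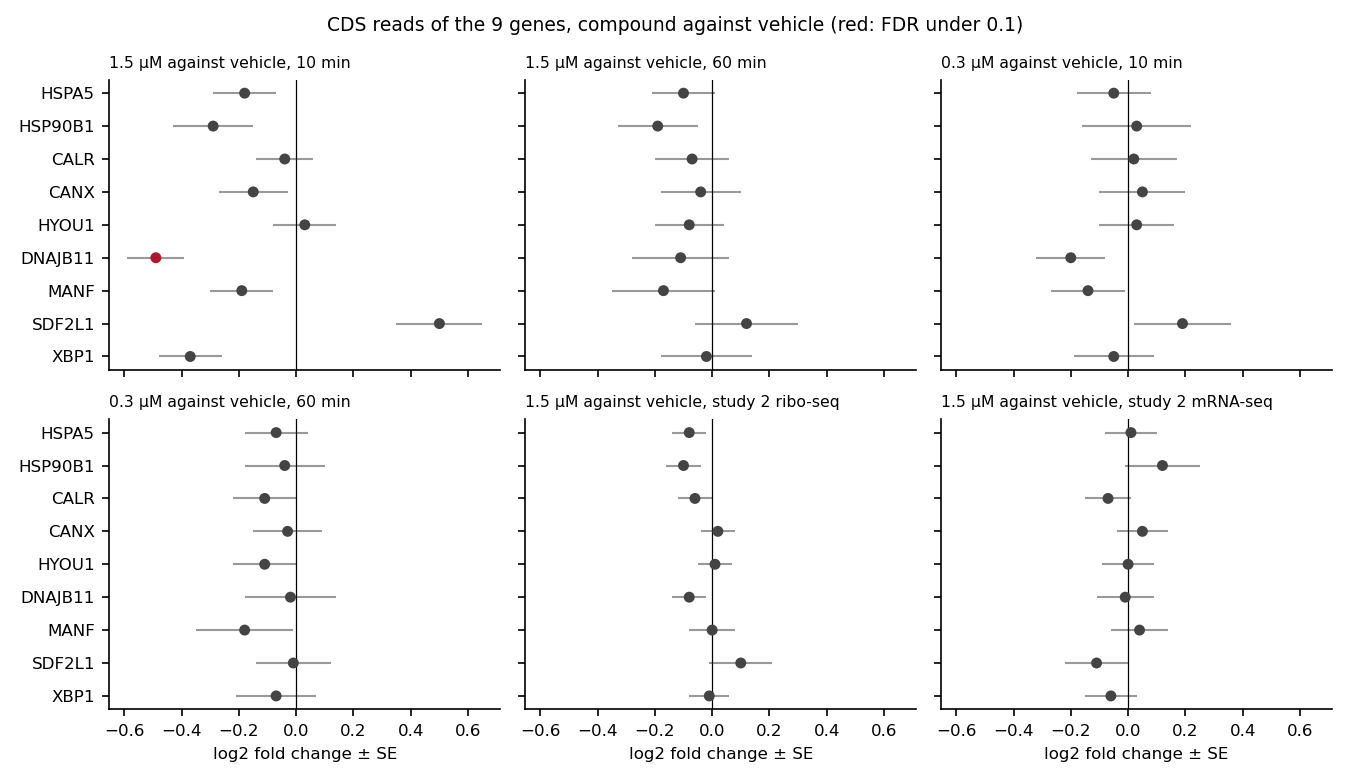
Log2 fold change of CDS reads with SE (x axis) for the 9 genes (y axis) in 6 comparisons of compound with vehicle, from edgeR. DNAJB11 at 1.5 μM for 10 min, in red, is the only gene past the FDR; in the second study all 9 lie between -0.11 and 0.12.

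XBP1 had fewer footprints after 60 min than after 10 min in 2 of the 3 treatments, although neither difference was called. In vehicle they went from 246.5, 285 and 308 CPM after 10 min to 193, 190.1 and 274 after 60 min, and at 0.3 μM from 305, 220.5 and 284 to 209, 199.6 and 216. The times overlapped in vehicle but not at 0.3 μM, where 4.31% of transcripts were lower without overlap. The log2 fold changes were -0.36 (SE 0.15; edgeR adjusted p = 0.713) and -0.37 (SE 0.13; edgeR adjusted p = 1), which did not pass the FDR. At 1.5 μM the times had the same level (log2 fold change 0.00, SE 0.11). The 3 comparisons of times share libraries with the comparisons of compound and vehicle.

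None of the 9 genes was called between 60 and 10 min, compared with 0.0% of 11098 transcripts for vehicle (769 at an unadjusted p under 0.05, and 43 by DESeq2), 0.00895% of 11177 for 0.3 μM and 0.0182% of 10999 for 1.5 μM. A change in the 1.5 μM effect from 10 to 60 min was tested as an interaction, for which edgeR called 0.0% of 11167 transcripts (506 at an unadjusted p under 0.05) and DESeq2 none. DNAJB11 had an interaction of 0.37 (SE 0.21), XBP1 of 0.35 (SE 0.20) and SDF2L1 of -0.38 (SE 0.27), each with an adjusted p of 0.856 by edgeR. An effect at 10 min and not at 60 min was therefore not shown to differ between the times.

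Other genes of the pathway were taken from lists chosen with earlier results of these data known. Of 15 sensors and regulators of the unfolded protein response, among them ERN1, which encodes IRE1, edgeR called none in any of the 11 comparisons, with at most 3 at an unadjusted p under 0.05 and at most 1 by DESeq2. Of 29 other ER folding factors, 3 were called at 1.5 μM for 10 min, compared with 0.851% of all transcripts, and none otherwise. There 9 of the 29 had an unadjusted p under 0.05, compared with 17.7% of all transcripts, and DESeq2 called 4, compared with 4.31%. ERO1A, an ER oxidase, was lower (log2 fold change -0.65, SE 0.13; edgeR adjusted p = 0.0547), DNAJC1, a membrane-bound co-chaperone of HSPA5, was lower (-0.65, SE 0.13; edgeR adjusted p = 0.0547), and ERP29, a protein of the ER lumen, was higher (0.60, SE 0.12; edgeR adjusted p = 0.0651). The median of the 29 there was -0.10. Of 17 genes of ER-associated degradation and 21 cytosolic and mitochondrial chaperones, edgeR and DESeq2 called none in any comparison, with at most 1 and 3 at an unadjusted p under 0.05. Neither did they call any of the 11 hepatocyte markers or the 2 markers of other cell types, with at most 1 and 0 at an unadjusted p under 0.05.

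PF-06446846 is known to stall ribosomes mostly early in a CDS, and all of the 9 genes but XBP1 begin with a signal peptide, so the density over codons 2 to 50 was compared next. After 10 min all 9 genes had a higher mean at 1.5 μM than with vehicle, as did 69.1% of 8443 transcripts. These transcripts were not matched to the 9 genes in read depth. The groups did not overlap for 6 of the 9, compared with 26.1% of transcripts, and all 6 were higher at 1.5 μM, compared with 22.7%. CANX had 1.85, 2.11 and 1.72 at 1.5 μM and 0.988, 0.706 and 1.23 with vehicle. HSP90B1 had 1.36, 1.72 and 1.43 against 0.603, 0.534 and 0.865, and HSPA5 had 1.37, 1.31 and 1.14 against 0.642, 0.523 and 0.758. The means of these 3 genes differed by 1.94, 2.25 and 1.99 times (exact permutation test, p = 0.1 each).

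HYOU1 (ratio 1.66), DNAJB11 (1.32) and XBP1 (2.15, between means of 0.0925 and 0.0430) were the other 3 without overlap, while CALR, MANF and SDF2L1 overlapped. XBP1 rests on few reads in this window, as these libraries held 1477 to 4465 reads over its whole CDS. At 0.3 μM for 10 min HSPA5 had 0.721, 0.857 and 0.806, HSP90B1 had 0.430, 1.30 and 0.952, and CANX had 0.625, 2.43 and 1.48. Each of these genes overlapped vehicle. The median difference of 1.5 μM minus vehicle was 0.238 over the 9 genes and 0.0938 over all transcripts. By footprint RPKM with vehicle in the second study, the 9 genes lay at percentiles from 74.8 (SDF2L1) to 98.3 (CALR) of 9267 transcripts.

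After 60 min only DNAJB11 did not overlap (0.793, 0.884 and 0.955 at 1.5 μM and 0.584, 0.618 and 0.715 with vehicle), compared with 9.96% of 8031 transcripts in either direction and 5.89% higher. In the second study 3 of the 9 did not overlap, HSPA5, HSP90B1 and DNAJB11, all higher at 1.5 μM, compared with 32.9% of 8998 transcripts in either direction and 18.9% higher, with 2 libraries in each group. DNAJB11 had 1.34 and 1.24 at 1.5 μM and 1.00 and 1.21 with vehicle in the second study. HSPA5 after 60 min of the first study had 0.709, 1.25 and 0.937 at 1.5 μM and 0.909, 0.852 and 0.958 with vehicle, which overlapped. CANX had 1.29, 2.61 and 2.18 at 1.5 μM and 1.95, 1.73 and 1.57 with vehicle there, which also overlapped. These vehicle values of CANX overlapped its 1.5 μM values after 10 min (1.72 to 2.11).

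**Figure D5:**
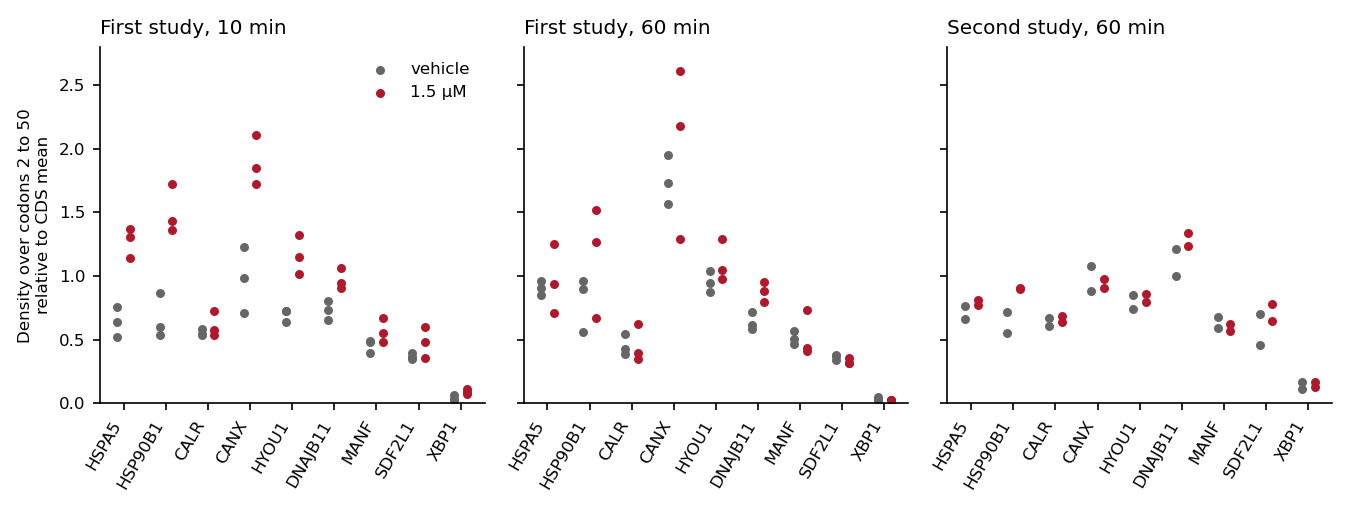
Density over codons 2 to 50 relative to the CDS mean (y axis, linear from 0) for the 9 genes (x axis) in each library (points) of 1.5 μM and vehicle. After 10 min the 2 groups separate for 6 genes, and XBP1 lies below 0.2 throughout.

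Stalling was also measured with Dmax, the largest amount by which the cumulative fraction of reads along the CDS at 1.5 μM exceeded that with vehicle, with replicates pooled and a Z-score within bins of 300 transcripts of like read count. None of the 9 genes reached a Z-score of 2 in any comparison, compared with 3.48% of 11422 transcripts after 10 min, 2.67% of 11442 after 60 min and 2.34% of 11405 in the second study. The highest Z-scores after 10 min were those of HSPA5 (1.36, with a Dmax of 0.120 at codon 251) and MANF (1.27, Dmax 0.0958 at codon 132). After 60 min the highest were those of HYOU1 (1.01, Dmax 0.0427) and HSP90B1 (0.978, Dmax 0.0581). The lowest Dmax there were 0.00868 for HSPA5 and 0.0139 for XBP1. In the second study SDF2L1 (1.30) and DNAJB11 (1.26) had the highest Z-scores. MDK and HSD17B11 were identified by the study with Dmax in these same libraries, so their values are not an independent check of the measure. They had Dmax of 0.423 and 0.482 after 10 min and of 0.353 and 0.484 after 60 min, with Z-scores of 5.54 to 8.91.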

How the data were processed

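Per the labels and the study's methods, Huh7 libraries were harvested in PBS and lysis buffer with cycloheximide. The authors stripped adapters, removed rRNA reads and aligned the rest with Bowtie 1.1.2 to the most abundant isoform of a gene by kallisto 0.42.5 (GRCh38). They kept all best alignments of reads with 5 or fewer sites, so a read can count on several genes, as HSP70 and HSP90 relatives may share, and assigned the P-site 14 nt from the 5′ end. The deposited files hold raw counts of reads per codon, with replicates not pooled and no normalization.

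Here counts were summed over each CDS and tested with edgeR 4.0.16 (filterByExpr, TMM, glmQLFit, glmQLFTest; R 4.3.3) on the compared groups, with Benjamini-Hochberg adjustment over all transcripts and an FDR of 0.1; DESeq2 1.42.0 was an alternative. Exact permutation tests, two-sided, compared densities (Python 3.11.15, numpy 2.4.6, pandas 2.3.3, scipy 1.17.1). Dmax followed the study's methods, for transcripts with 10 or more reads in both groups, but the main Z-score did not subtract the bin mean. A Z-score in SDs from the bin mean, as the paper describes it, was an alternative. The steps were tested on simulated data. Sequences came from GENCODE v44 transcripts, whose CDS length matched the maps for 8 of the 9 genes. Labels call replicates biological but name no shared culture or day; p-values measure the spread between these libraries.

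The 9 genes and all lists were chosen with earlier results of these data known. Named are all 9 genes, in each comparison at most 3 list genes with the smallest adjusted p past the FDR, MDK and HSD17B11, and the 5 transcripts most like HSPA5 and XBP1. ERN1, AFP, APOH, CD68 and PECAM1 are named outside this rule, chosen after their values were seen. ALB is named as the hepatocyte marker not found by symbol in the maps. Same-numbered libraries deviated together, over 10168 transcripts, for 1.5 μM and vehicle after 60 min (r = 0.513, 0.384 and 0.507), 0.3 μM and vehicle after 10 min (0.191, 0.145 and 0.515) and 60 min (0.429, 0.428 and 0.539) and the times of 0.3 μM (0.346, 0.359 and 0.419); the main fits have no block. A series-level text file that holds no count table was not used. Protein sequences were not used here. One sequence is not reported here.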

Additional observations from a re-analysis of the deposited data

How the results depend on the processing

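At 1.5 μM for 10 min, 1 of the 9 genes was called. DESeq2 called 3, the paired fit with the replicate number as a block also called 3 (the numbers meet the rule for pairing in other comparisons but not in this 1, where r was 0.183, 0.225 and 0.0686), and all 18 libraries in 1 fit and an FDR of 0.05 each called 0. Of all transcripts the unblocked edgeR fit called 0.851%, DESeq2 4.31%, the block 10.8% and the fit of all 18 libraries 0.266%. Leaving out 1 library gave 0 to 4 of the 9 genes and 0.081% to 14.9% of all transcripts, both highest without vehicle replicate 3, with the adjusted p of DNAJB11 from 0.00978 to 0.383. RLE size factors, no filter on low counts, codons after 50 and trimming 15 codons at both ends left 1 call, DNAJB11. In the other 10 comparisons every alternative, the block included, called none of the 9. The number of genes whose early densities did not overlap went from 1 to between 1 and 4 after 60 min (17.4% to 24.1% of all transcripts) and from 3 to between 4 and 8 in the second study (62.6% to 67.9%) when 1 library was left out, and the number at pause codons from 3 to between 3 and 7 after 10 min (25.8% to 33.8%) and from 0 to between 0 and 2 after 60 min (13.9% to 19.1%), since smaller groups overlap less often. No alternative moved the difference at the end of XBP1 by more than the spread of the replicates, and none gave any of the 9 genes a Dmax Z-score of 2. Between 2 and 3 libraries in a group limit every density test, and with a library left out of the second study the lone sample is assumed to vary like the other group.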

Other observations

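Across the 18 ribo-seq libraries of the first study, the levels of the members were compared with each other. The log2 CPM of HSPA5 had a Pearson r of 0.867 with CANX (Spearman 0.851), 0.865 with HSP90B1 (0.825) and 0.766 with DNAJB11 (0.705), and of -0.136 with XBP1 (-0.201) and -0.475 with SDF2L1 (-0.511). The 5 transcripts most like HSPA5 among 9690 with at least 50 reads on average were CCDC25 (0.912, Spearman 0.901), ZBTB10 (0.878, 0.851), HNRNPD (0.873, 0.866), RNMT (0.871, 0.814) and CFDP1 (0.871, 0.818). Those most like XBP1 were VPS37C (0.814, 0.740), ASNS (0.784, 0.816), ZNF93 (0.784, 0.833), RBKS (0.772, 0.820) and NAT2 (0.767, 0.695). The libraries share the 6 groups and their TMM scaling, so these values are descriptions with no test.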
